A study of Solanum lycopersicum with 6 samples.

Results

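The genes described here carry the ethylene signal in tomato (Solanum lycopersicum) leaf: the 7 ethylene receptors ETR1, ETR2, NR, ETR4, ETR5, ETR6 and ETR7, the kinase CTR1, the membrane protein EIN2 and the transcription factor EIL1. They were chosen by a fixed list of identifiers, which found 10 of 35768 gene models: Solyc12g011330 (ETR1), Solyc07g056580 (ETR2), Solyc09g075440 (NR), Solyc06g053710 (ETR4), Solyc11g006180 (ETR5), Solyc09g089610 (ETR6), Solyc05g055070 (ETR7), Solyc10g083610 (CTR1), Solyc09g007870 (EIN2) and Solyc06g073720 (EIL1). The names come with the list, since the deposited table gives identifiers only. In the RefSeq gene table (assembly SLM_r2.1), 9 of the names were found as gene symbols and NR by its other name ETR3. The chromosome number in the identifier was that of the RefSeq gene of the same name for 10 of 10.

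Ethylene receptors sit in the endoplasmic reticulum membrane and are negative regulators: without the hormone they keep the kinase CTR1 active, and CTR1 holds EIN2 inactive by phosphorylation. When ethylene binds, this brake is released, and in Arabidopsis a part of EIN2 is cut off and acts both in the nucleus, on transcription factors of the EIN3/EIL family, and in the cytoplasm, on the translation of mRNAs that encode their degradation factors. The receptors fall into subfamily I, with ETR1, ETR2 and NR, and subfamily II, with ETR4, ETR5, ETR6 and ETR7. In tomato the pathway is best known for fruit ripening, and it also acts in leaf ageing, leaf bending and defence.

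Each gene was read in 3 kinds of library, 2 replicates of each, all from true leaves of plants grown at 28 °C with 12 h of light. LTM libraries hold the mRNA pieces shielded by ribosomes (footprints) from LTM-treated leaves, an agent that the labels do not spell out, with puromycin added to the extract, and they stand for initiating ribosomes. CHX libraries hold footprints from extracts with 100 µg/ml of cycloheximide, which stops ribosomes during elongation, and mRNA libraries were made from total RNA in aliquots of a CHX extract, after removal of rRNA, so no mRNA of LTM-treated leaves enters any ratio. The labels name no cultivar or genotype, give the age as 3 weeks in one field and 2 weeks in another, and do not say whether the replicates are separate plants. The p-values therefore reflect no more than the spread of these libraries, which may be technical. Whole leaves were used, in which fewer cells of a type and less RNA per cell cannot be told apart, and leaf marker genes could not be looked up because the table holds no names.

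Library totals ran from 18240140 to 38983295 counts in LTM, 47856048 to 48704200 in CHX and 24810169 to 30371574 in mRNA. Levels are in CPM, the counts of a gene per 1000000 counts of its library. They are not divided by length, so the level of each gene is compared with itself across kinds of library. The receptor shares and the nearest models below do set genes against each other, without a correction for length. Ratios between kinds are log2 fold changes from edgeR's quasi-likelihood model of all 6 libraries, which scales libraries by TMM factors, so that "higher" and "lower" mean relative to most of the 20806 models tested. A gene was called where its p-value, adjusted over all models tested by Benjamini-Hochberg, was under 0.05. The counts cover the coding region for footprints but the transcript region for mRNA, so a footprint to mRNA ratio also moves with the untranslated part of a transcript. All 10 genes entered the test, but ETR4 and ETR6 reached the filter's minimum of 0.288 CPM in the mRNA libraries alone, so their low footprint ratios are tied to how they entered the test.

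The first question was how many elongating ribosomes each gene carried for its amount of mRNA, the ratio of CHX to mRNA known as translational efficiency. Footprints were low relative to mRNA for most of the receptors and for EIN2, and close to the bulk of models for ETR1 and CTR1. EIL1 lay on the high side, with a ratio above that of 75.8% of all models tested. Of the 10 genes, 7 were called lower in CHX than in mRNA, where 27.4% of all models tested were, and 1 was called higher, where 22.5% of all models were. Of the 7 receptors, 6 were called lower. Without ETR4 and ETR6, which entered the test through mRNA alone, 4 of the remaining 5 were. Among these, ETR7 reached the filter's minimum in mRNA and LTM but in 0 CHX libraries, so its low ratio here is not free of that tie. The median log2 fold change was -2.00 over the 7 and -1.92 over the 5, beside -0.02 over all models tested. DESeq2 called 5 of the 7 receptors lower, ETR4 among them, beside 5149 of the 20806 models tested.

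**Figure D1:**
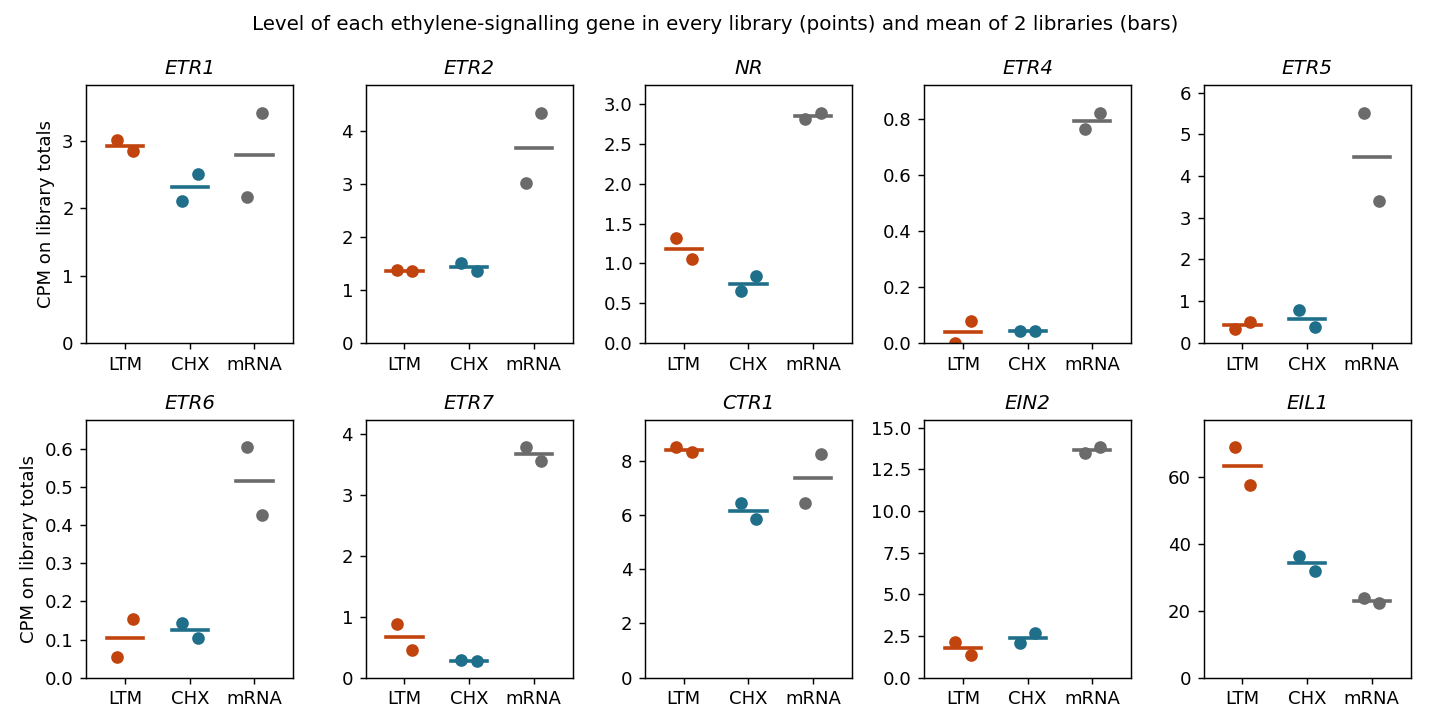
Level of each of the 10 genes in every library, in CPM on library totals, with its own linear axis from 0 for each gene. Points are libraries and bars the mean of 2. For ETR2, NR, ETR4, ETR5, ETR6, ETR7 and EIN2 every footprint library lies below both mRNA libraries, whereas EIL1 is highest in LTM, at 63.2 CPM, and lowest in mRNA, at 23.0 CPM.

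ETR1, a subfamily I receptor with a complete histidine kinase and a receiver domain, was at 2.11 and 2.51 CPM in the CHX libraries, against 2.18 and 3.42 CPM in the mRNA libraries. The 2 kinds overlapped, and its log2 fold change of -0.25 had a 95% interval of -0.75 to 0.24 (edgeR adjusted p = 0.349). ETR2, the other subfamily I receptor with a receiver domain, had 1.499 and 1.36 CPM in CHX and 3.02 and 4.35 CPM in mRNA. Both CHX libraries lay under both mRNA libraries, and ETR2 was 2.53-fold lower (log2 fold change -1.34, SE 0.21, edgeR adjusted p = 0.00193). NR (Never-ripe), a subfamily I receptor that lacks a receiver domain and whose dominant mutation blocks ripening, had 0.657 and 0.836 CPM in CHX and 2.82 and 2.90 CPM in mRNA. Its 2 mRNA libraries were close together, and its log2 fold change was -1.92 (SE 0.24, edgeR adjusted p = 0.000746), or 3.79-fold lower.

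The subfamily II receptors, whose histidine kinase domain lacks residues needed for that activity, were all called lower in CHX. ETR7 was at 0.287 and 0.272 CPM in CHX, against 3.79 and 3.56 CPM in mRNA, on 27 and 202 counts. The replicates of each kind lay close together, and the log2 fold change was -3.69 (SE 0.34, edgeR adjusted p = 0.000168), or 12.9-fold lower. ETR5 had 0.780 and 0.376 CPM in CHX and 5.52 and 3.39 CPM in mRNA. Its replicates differed widely within both kinds, without overlap between the kinds. Its log2 ratio of CHX to mRNA was -2.93 (SE 0.45, edgeR adjusted p = 0.0016). The ratio ran from -3.61 without CHX replicate 1 to -2.39 without mRNA replicate 1.

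ETR4, a receptor whose reduced expression is known to hasten ripening, had 2 counts in each CHX library, or 0.0411 and 0.0418 CPM. It had 19 and 25 counts in the mRNA libraries, or 0.766 and 0.823 CPM. The ratio of its summed counts, scaled by library totals, was 0.0520 with a 95% exact binomial interval of 0.0136 to 0.143, which covers counting error only, and its log2 fold change was -4.14 (SE 0.61, edgeR adjusted p = 0.00136). ETR6 had 7 and 5 counts in CHX, or 0.144 and 0.104 CPM, against 15 and 13 counts in mRNA, or 0.605 and 0.428 CPM. It lay lower in both CHX libraries, by -2.00 on the log2 scale (SE 0.55, edgeR adjusted p = 0.0178). This call was lost with DESeq2 (adjusted p = 0.0542), without CHX replicate 1 (0.0584), without CHX replicate 2 (0.100) and without mRNA replicate 1 (0.145).

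Within the family, the fitted interval of ETR1 lay above those of ETR2, NR, ETR4, ETR5 and ETR7 and overlapped the interval of ETR6, which ran from -3.27 to -0.73. The differences between receptors were not themselves tested. Across all models tested, 41.1% had a lower CHX to mRNA ratio than ETR1, 16.3% than ETR2 and 10.7% than NR, and 5.36% than ETR7 and 6.66% than ETR5.

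Downstream of the receptors the 3 genes differed from one another. CTR1, the kinase that receptors hold active, was at 6.45 and 5.87 CPM in CHX, against 6.45 and 8.26 CPM in mRNA. CHX replicate 1 and mRNA replicate 1 were almost level, and the log2 fold change of -0.23 had a 95% interval of -0.58 to 0.12 (edgeR adjusted p = 0.233). EIN2, the membrane protein through which the ethylene signal passes to the nucleus, had 2.07 and 2.67 CPM in CHX, against 13.5 and 13.8 CPM in mRNA. The mRNA replicates were nearly equal and far above both CHX libraries, and EIN2 was 5.71-fold lower in CHX (log2 fold change -2.51, SE 0.21, edgeR adjusted p = 0.000111), and 7.87% of all models tested had a lower ratio.

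EIL1, a transcription factor of the EIN3/EIL family that switches on ethylene-response genes, went the other way, with 36.2 and 32.0 CPM in CHX, against 23.7 and 22.2 CPM in mRNA. Both CHX libraries lay above both mRNA libraries, and EIL1 was 1.49-fold higher (log2 fold change 0.58, SE 0.18, edgeR adjusted p = 0.0271). The call was lost without CHX replicate 1 (log2 fold change 0.43, adjusted p = 0.144), without mRNA replicate 2 (0.42, adjusted p = 0.169), with at least 10 CPM required (0.30, adjusted p = 0.168) and against a minimum fold of 1.5 (adjusted p = 0.502).

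**Figure D2:**
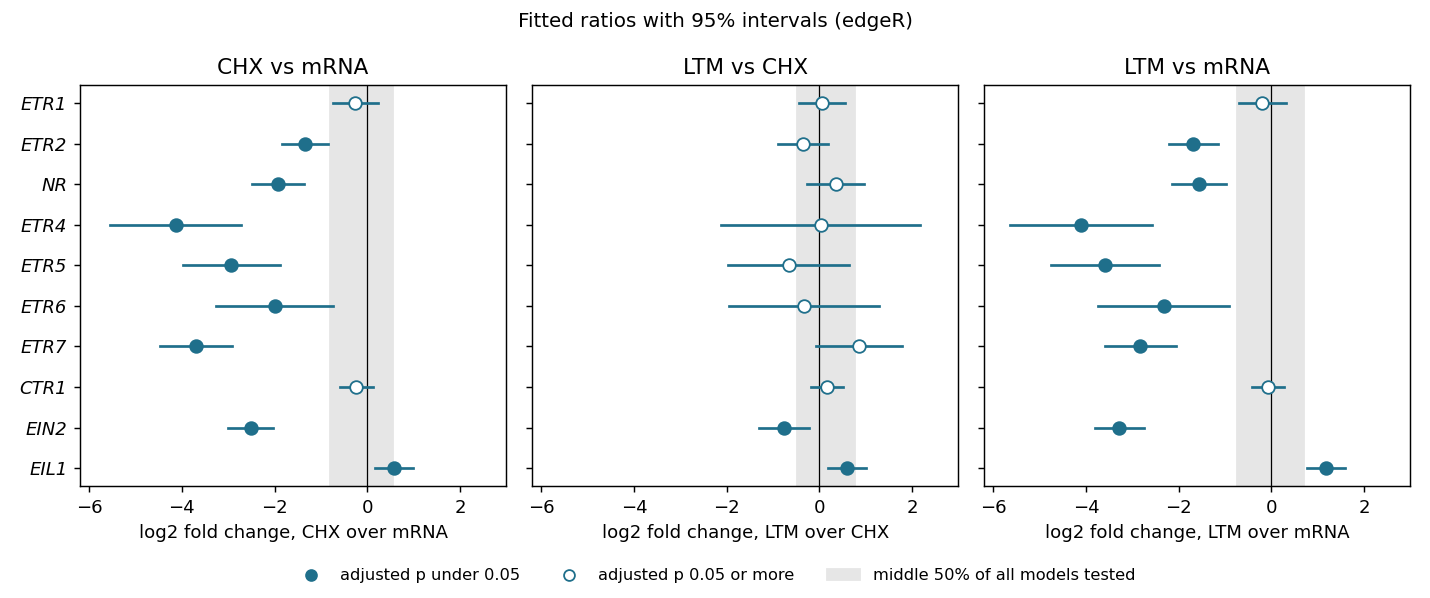
Fitted log2 fold changes (points) with 95% intervals (lines) of the 10 genes in the 3 comparisons, CHX over mRNA, LTM over CHX and LTM over mRNA. Filled points have an adjusted p under 0.05, and the grey band holds the middle 50% of all models tested. In CHX over mRNA 7 filled points lie left of 0 and EIL1 right of it, while in LTM over CHX EIN2 and EIL1 are filled.

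The second question set initiating against elongating ribosomes, with footprints of both counted over the coding region. Length can still weigh on this ratio where LTM footprints gather at start sites, and its part was not tested. The receptors' footprints were not called different between LTM and CHX. Of the 10 genes, EIL1 was called higher in LTM, where 22.4% of all models were, and EIN2 was called lower, where 19.6% of all models were. Of the 7 receptors edgeR called 0, with 0 at an unadjusted p under 0.05. DESeq2 called 0 of them, beside 4287 models higher and 3604 lower among the 20806 tested. Their median log2 fold change was 0.03, beside -0.01 over all models. Scaling to library totals in place of TMM factors moved all models up by a median of 0.29 in this comparison and by 0.27 in LTM against mRNA, so the CPM values below run higher for LTM than the fitted ratios do.

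ETR1 had 3.02 and 2.85 CPM in LTM, against 2.11 and 2.51 CPM in CHX. Its LTM libraries lay above its CHX libraries on this scale, but with TMM factors the kinds overlapped, and the log2 fold change of 0.05 had a 95% interval of -0.44 to 0.55 (edgeR adjusted p = 0.859). ETR2 was at 1.37 and 1.36 CPM in LTM and 1.499 and 1.36 CPM in CHX, with a 95% interval of -0.89 to 0.19. NR had 1.32 and 1.05 CPM in LTM, against 0.657 and 0.836 CPM in CHX, and its interval ran from -0.26 to 0.96. These intervals leave room for less than a 2-fold difference in either direction for the subfamily I receptors.

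The subfamily II receptors had fewer footprints and wider intervals. ETR7 was at 0.877 and 0.462 CPM in LTM, against 0.287 and 0.272 CPM in CHX, on 34 and 27 counts. Both LTM libraries lay above both CHX libraries, and the log2 fold change of 0.86 had an interval of -0.06 to 1.78 (edgeR adjusted p = 0.119). ETR5 had 0.329 and 0.513 CPM in LTM and 0.780 and 0.376 CPM in CHX, which overlapped, with an interval of -1.97 to 0.64. For ETR4 the LTM libraries held 0 and 3 counts, against 2 and 2 in CHX, and a count of 0 in LTM replicate 1 allows up to 0.164 CPM. ETR6 had 1 and 6 counts in LTM and 7 and 5 in CHX. For these 2 receptors no difference was detectable at this depth, with 95% intervals of -2.11 to 2.17 for ETR4 and -1.95 to 1.29 for ETR6. These values depend on LTM replicate 2, which held most of their LTM counts. Without it the fitted log2 fold change was -3.66 for ETR4 (adjusted p = 0.307), where LTM was left with 0 counts and the value rests on edgeR's prior count, and -1.43 for ETR6.

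CTR1 was at 8.498 and 8.31 CPM in LTM, against 6.45 and 5.87 CPM in CHX. The LTM libraries were higher on both scales, by little once TMM factors were applied, and the log2 fold change was 0.16 (95% interval -0.19 to 0.50, edgeR adjusted p = 0.430). EIL1 had 68.7 and 57.6 CPM in LTM, against 36.2 and 32.0 CPM in CHX. The kinds did not overlap. The log2 fold change of EIL1 was 0.59 (SE 0.17, edgeR adjusted p = 0.0283), or 1.51-fold higher, above that of 71.4% of all models tested. Its call was lost without LTM replicate 1 (log2 fold change 0.49, adjusted p = 0.114), without CHX replicate 2 (0.45, adjusted p = 0.149) and against a minimum fold of 1.5 (adjusted p = 0.526).

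EIN2 had 2.14 and 1.39 CPM in LTM, against 2.07 and 2.67 CPM in CHX. The kinds overlapped on library totals and not with TMM factors, where EIN2 was at 1.84 and 1.24 CPM in LTM and at 2.30 and 2.77 CPM in CHX. Its log2 fold change was -0.77 (SE 0.23, edgeR adjusted p = 0.0313), or 1.70-fold lower. That call was lost in 8 of 14 alternatives, among them scaling to library totals (log2 fold change -0.48, adjusted p = 0.189), and without LTM replicate 2 (-0.47, adjusted p = 0.206), CHX replicate 2 (-0.63, adjusted p = 0.128), mRNA replicate 1 (-0.77, adjusted p = 0.0506) or mRNA replicate 2 (-0.71, adjusted p = 0.0704).

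The third comparison set initiating-ribosome footprints against mRNA, with the same mRNA libraries as the first, so the values of the 2 comparisons are not independent. Of the 10 genes, 7 were called lower in LTM than in mRNA, where 27.4% of all models were, and EIL1 was called higher, where 25.5% of all models were. The 7 called lower include ETR4 and ETR6, which entered the test through mRNA alone. Of the 5 receptors that remain without them, 4 were called lower. The median log2 fold change of the 7 receptors was -2.33, and -1.69 without ETR4 and ETR6, beside 0.02 over all models.

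Among the receptors, ETR1 had 3.02 and 2.85 CPM in LTM and 2.18 and 3.42 CPM in mRNA, which overlapped (log2 fold change -0.20, 95% interval -0.70 to 0.30, edgeR adjusted p = 0.467). Its interval lay above those of all 6 other receptors. The called log2 fold changes of the others were -1.69 for ETR2, -1.57 for NR, -2.83 for ETR7, -3.60 for ETR5, -2.33 for ETR6 and -4.11 for ETR4, with edgeR adjusted p from 0.000246 (ETR7) to 0.0135 (ETR6). The value of ETR6 was -3.43 without LTM replicate 2, and its call was lost without LTM replicate 1 (adjusted p = 0.0548) and without mRNA replicate 1 (adjusted p = 0.102). For ETR4 the summed LTM counts were 3, and the ratio of summed counts, scaled by library totals, was 0.0657 with a 95% exact binomial interval of 0.0131 to 0.205. All 3 came from LTM replicate 2. Without that library LTM held 0 counts of ETR4, and the fitted value of -7.79 rests on edgeR's prior count. Set at the 3 counts that a 0 allows, LTM lay 4.83-fold below the mean of the mRNA libraries. That figure leaves out the counting error of mRNA and the spread between libraries.

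EIN2 was at 2.14 and 1.39 CPM in LTM, against 13.5 and 13.8 CPM in mRNA. This was 9.73-fold lower, or -3.28 on the log2 scale (SE 0.23, edgeR adjusted p = 1.78e-05), and 4.55% of all models tested had a lower ratio. EIL1 stood at 68.7 and 57.6 CPM in LTM, against 23.7 and 22.2 CPM in mRNA, and 83.5% of all models tested had a lower ratio. Every LTM library was well above every mRNA library, and the gene was 2.25-fold higher in LTM (log2 fold change 1.17, SE 0.18, edgeR adjusted p = 0.00101), a call that held in all 14 alternatives. The order of its levels was LTM over CHX over mRNA, and that of EIN2 was mRNA above both kinds of footprint. CTR1 had 8.498 and 8.31 CPM in LTM, against 6.45 and 8.26 CPM in mRNA, with a log2 fold change of -0.07 (95% interval -0.43 to 0.28).

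The receptor counts were also divided among the 7 genes within each library, which sets each receptor against its own family. The 7 receptors summed to 6.71 ± 0.352 CPM in LTM, 5.51 ± 0.0194 CPM in CHX and 18.8 ± 0.116 CPM in mRNA (SD, n = 2 each). ETR1 held 43.3% and 44.0% of the summed receptor counts in LTM, 38.3% and 45.6% in CHX, and 11.6% and 18.2% in mRNA. Its share in each of the 4 footprint libraries was above that in both mRNA libraries. The nearest 95% exact binomial intervals, 32.5% to 44.4% in CHX replicate 1 and 15.1% to 21.6% in mRNA replicate 2, did not overlap. These intervals cover counting error only and not the spread between libraries. That of mRNA replicate 1, 8.86% to 14.9%, did not overlap that of mRNA replicate 2 either. ETR7 held 12.6% and 7.14% in LTM, 5.20% and 4.94% in CHX, and 20.3% and 18.8% in mRNA.

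The shares of NR and ETR2 lay closer together across the kinds of library. NR held 18.9% and 16.3% in LTM, 11.9% and 15.2% in CHX, and 15.1% and 15.4% in mRNA, so the kinds overlapped between CHX and mRNA. ETR2 held 19.7% and 21.0% in LTM, 27.1% and 24.7% in CHX, and 16.2% and 23.0% in mRNA. Subfamily I as a whole held 81.6% ± 0.382 in LTM, 81.4% ± 5.82 in CHX and 49.7% ± 9.66 in mRNA (SD, n = 2 each). With 2 libraries against 2, a two-sided exact permutation test cannot give a p below 0.333, so these shares are given as a description. They rest on 127 to 573 receptor counts per library. In every library they also depend on each receptor's coding length, and in mRNA on the length of its untranslated regions. The part of these lengths was not tested.

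**Figure D3:**
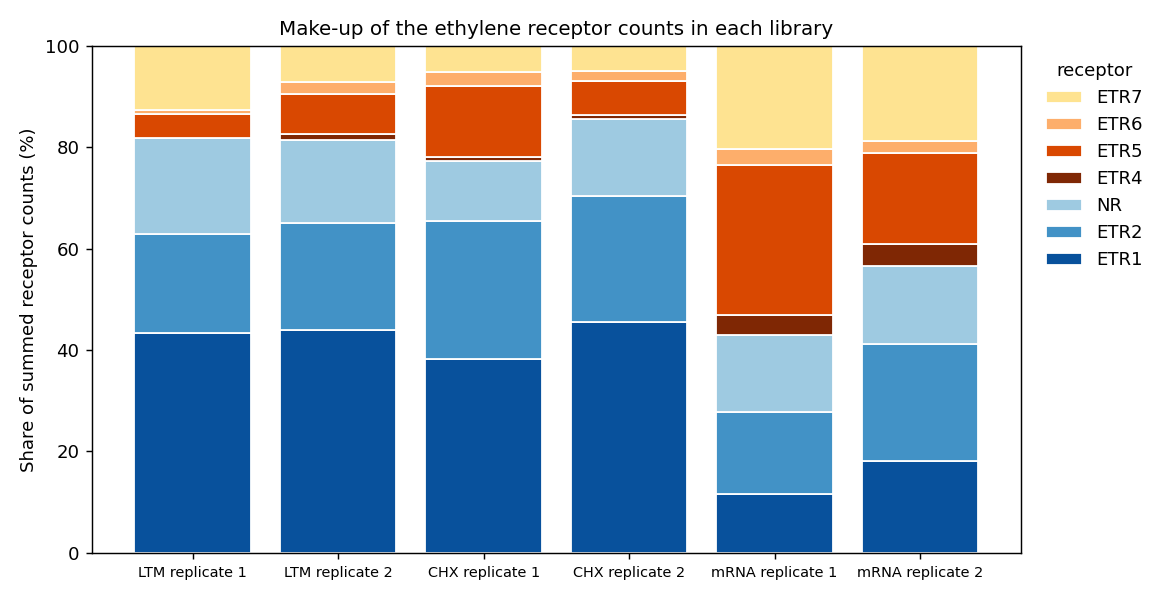
Share of each receptor in the summed counts of the 7 receptors, in percent, for each of the 6 libraries. Subfamily I receptors are in blue and subfamily II receptors in orange to yellow. The blue part averages 81.6% in LTM and 81.4% in CHX, and 49.7% in mRNA. Most of this difference lies in ETR1, which averages 43.7% in LTM, 42.0% in CHX and 14.9% in mRNA.

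The models whose levels over the 6 libraries came closest to NR and EIN2, by Euclidean distance in log2 CPM among 20796 other models tested, carry no name in the files. Nearest to NR was Solyc07g054320.3.1 (distance 0.318), with 1.48 and 1.08 CPM in LTM, 0.698 and 0.857 CPM in CHX, and 2.98 and 2.44 CPM in mRNA. Nearest to EIN2 was Solyc11g069330.1.1 (distance 0.395), with 2.19 and 1.49 CPM in LTM, 2.61 and 2.57 CPM in CHX, and 13.8 and 12.1 CPM in mRNA.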

How the data were processed

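The authors deposited one table of raw read counts per gene model, in which LTM and CHX reads were counted in coding regions and mRNA reads in transcript regions, per the file headers. The aligner, counter, genome build, annotation and treatment of reads matching several genes are not stated in the sources used here, so reads from similar receptor genes may be split or dropped; 0 other models had the same 6 counts as any of the 10 genes. Footprints of 26 to 32 nt and mRNA were read as 75-nt single-end reads, per the labels' protocols.

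Analysis used R 4.3.3, edgeR 4.0.16 and DESeq2 1.42.0. filterByExpr kept 20806 of 35768 models. One quasi-likelihood model with kind of library as factor gave 3 two-sided contrasts across all models, and SE is the size of the log2 fold change over the square root of F. The procedure was tested on simulated counts. Changes were put only into models with higher mean counts than NR, ETR4, ETR6 and ETR7, so that test does not cover counts as low as theirs. A count of 0 allows up to 3 counts. The exact binomial intervals cover counting error only and, without molecular identifiers, take each read as a separate molecule. The edgeR intervals also include the fitted spread between libraries. The genes and lists were chosen with earlier results of these data known. All 10 genes are named whatever their values, with the nearest model to NR and to EIN2. Of 18 further ethylene-signalling names listed, 0 could be paired with an identifier of the table, so none is reported.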

Additional observations from a re-analysis of the deposited data

How the results depend on the processing

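Of 394 alternative values for the 10 genes, 373 kept their side of the threshold and 21 missed it. Those 21 belong to ETR6, EIL1 and EIN2, as given above. The sign changed in 0 values past the threshold in either fit and in 12 that were not called: those of ETR1, ETR4, ETR5 and ETR6 in LTM vs CHX, and of ETR1 and CTR1 in LTM vs mRNA, so no direction can be read for these. Of 84 alternative counts of called models, 70 differed from the reported ones by less than 1.5 times. The 394 values hold none for ETR4 and ETR6 in LTM vs CHX fitted on those 2 kinds alone, where they did not enter the test. Under a filter of 10 CPM in 2 libraries, only 8292 models entered the test. Of the 10 genes only EIN2 and EIL1 were among them, so the others have no value under this filter. CHX was then higher than mRNA in 1700 and lower in 2334, LTM higher than CHX in 2222 and lower in 1717, and LTM higher than mRNA in 2454 and lower in 2292. A minimum fold of 1.5 gave 1737 models higher and 3770 lower in CHX vs mRNA, 971 lower in LTM vs CHX and 3398 higher in LTM vs mRNA. Library totals gave 1228 models lower in LTM vs CHX, with 82.6% of calls upward against 53.3% with TMM factors, and 62.2% against 48.2% in LTM vs mRNA. With any single library left out, 2676 to 4920 models were higher in CHX vs mRNA, the lowest numbers being 2676 when mRNA replicate 1 was left out and 2914 for mRNA replicate 2. Likewise 2482 to 3520 were lower in LTM vs CHX, with the 2482 when CHX replicate 1 was left out. The cause of these differences in number was not tested.

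Nothing in the labels ties equal replicate numbers to one extract, so libraries were not paired. Deviations of same-numbered libraries correlated at 0.356 for CHX and mRNA, 0.338 for LTM and CHX and 0.207 for LTM and mRNA. A replicate block gave 5623 models higher and 6326 lower in CHX vs mRNA, 5330 higher and 5297 lower for LTM against CHX, and 6062 higher and 6313 lower for LTM against mRNA, and it changed no call of the 10 genes. Shares per kb of coding length were not run, because coding lengths were not used here. Depth limits ETR4 and ETR6 most.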
